A study of Solanum lycopersicum with 9 samples.

Results

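The genes described here are 100 genes of ripening tomato fruit whose array signal was lower on every red ripe array than on every breaker, turning and pink array. They were chosen by their signals: the gap of a gene is the lowest of the 6 earlier log2 values minus the highest of the 3 red ripe values, and the 100 genes with the largest gap were kept from 21326 genes. A gap of 1 means that the nearest earlier array and red ripe array still differed 2-fold. Because this contrast chose the members, the values at red ripe are a description and carry no test.

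Fruit of the cultivar Ailsa Craig, labelled WT, was sampled at 4 colour stages: breaker (2 arrays), turning (2), pink (2) and red ripe (3), with no treatment and breaker as the reference stage. The labels give an open hydroponic greenhouse and pericarp as the tissue, and no age of the fruit. RNA was read on Affymetrix TomGene ST 1.1 strips, where several probes together report 1 transcript, and the deposited values are log2 signals. The methods give 2 biological replicates per stage and name fruit tissue, once abscission zones, where the labels name pericarp. They do not account for the third red ripe array.

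During ripening the chloroplasts of the green fruit turn into chromoplasts: chlorophyll is broken down, the photosynthetic membranes are dismantled and carotenoids accumulate. The fruit surface meanwhile carries a cuticle of cutin and wax, and the tomato peel accumulates the yellow flavonoid naringenin chalcone. Genes for photosynthesis are known to decline as fruit ripens. A last drop at red ripe was set by the choice of the members, so the question here is how each signal ran before it.

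The fruit label was checked against ripening genes. PG2, the polygalacturonase of ripe tomato cell walls, was at 9.09 and 9.50 at breaker and 11.25, 11.29 and 11.44 at red ripe, and Psy1, the phytoene synthase of fruit carotenoid synthesis, was at 9.42 and 9.43 at breaker, 7.99 and 8.60 at turning (-1.13, SE 0.20, adjusted p = 0.00645) and 10.06, 10.15 and 10.26 at red ripe. LOX1.1 and E8-6, listed as ripening genes too, are members and were lowest at red ripe. Of 4 abscission zone genes, cel5, TAPG2 and TAPG4 stayed at or below 2.94 on all arrays, and Cel1 lay between 2.95 and 6.99. The median signal of the 9 arrays was 1.78 to 2.01. The 90th percentile was 4.17 to 4.55 on the turning and pink arrays and 5.09 to 5.43 on the breaker and red ripe arrays, so bright genes tended to read lower at the middle stages. EXP1, a fruit expansin and the remaining listed ripening gene, was at 4.30 and 5.13 at breaker, 1.12 to 1.74 at turning and pink, and 4.89 to 5.05 at red ripe. It differed from breaker by -3.14 at turning and -3.37 at pink, and the part of the lower bright signals in this was not tested. Replicates correlated at r = 0.939 (turning), 0.957 (pink), 0.988 (breaker) and 0.983 to 0.991 (red ripe) across probe sets.

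In the deposited values, a red ripe signal below all earlier arrays was rarer than one above them. The 90th percentile of the arrays was highest at red ripe (5.24 to 5.43), against 5.09 and 5.15 at breaker and 4.17 to 4.55 at turning and pink. The part of this spread in the difference between the 2 directions was not tested. All 3 red ripe arrays lay below all 6 earlier arrays for 825 genes (838 of 23194 probe sets, 3.61%), and above all of them for 4517 genes (4773 probe sets, 20.6%). The gap of the 100 members ran from 4.61 to 0.58 with a median of 0.96, and 47 members had a gap over 1 and 9 a gap over 2. In the opposite direction the largest gap was 6.30, the gene of rank 100 had 1.97, and 377 genes exceeded 1. The members are therefore the extreme of a shallow distribution, and the threshold cuts it where genes are dense: LOC101263001 (rank 98) had a gap of 0.61, LOC101264213 and PSBP (ranks 99 and 100) had 0.58, POR2 just outside also had 0.58, and LOC101263570 and LOC101248556 had 0.57.

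**Figure D1:**
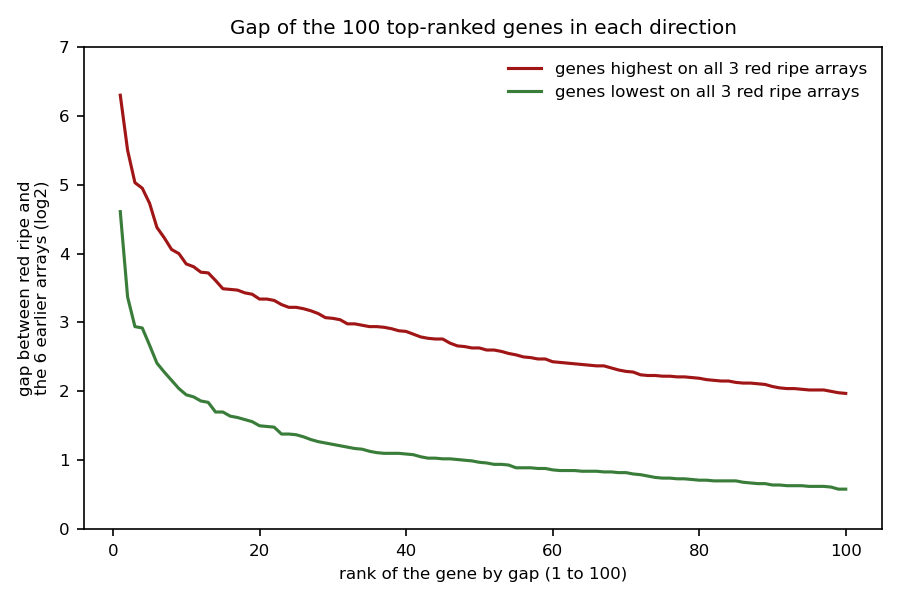
Gap in log2 units (y axis) against the rank of the gene (x axis, 1 to 100), for genes lowest on all red ripe arrays (green) and genes highest on all red ripe arrays (red). The green curve starts at 4.61 and ends at 0.58, and the red curve starts at 6.30 and ends at 1.97.

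Across the members, the median stage mean went from 6.42 (breaker) over 6.30 (turning) and 6.25 (pink) to 4.11 (red ripe). A gene is called higher or lower here where a limma fit to all 9 arrays gave a difference of more than 2-fold at an adjusted p below 0.05 (Benjamini-Hochberg over all probe sets). By this measure 87 of the 100 were lower at red ripe than at breaker (1.24% of all 67795 probe sets), 94 lower than at turning (1.92%) and 96 lower than at pink (1.32%). Those counts restate the choice of the members. The median difference was 3.58-fold against breaker, 3.25-fold against turning and 3.77-fold against pink. The red ripe mean was under 2, about the median of an array, for 14 members, and over 5 for 33, so a part of the group was near the lower end of the scale in red fruit while others remained well measured. In bulk tissue, fewer cells of a type and less RNA per cell cannot be told apart.

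**Figure D2:**
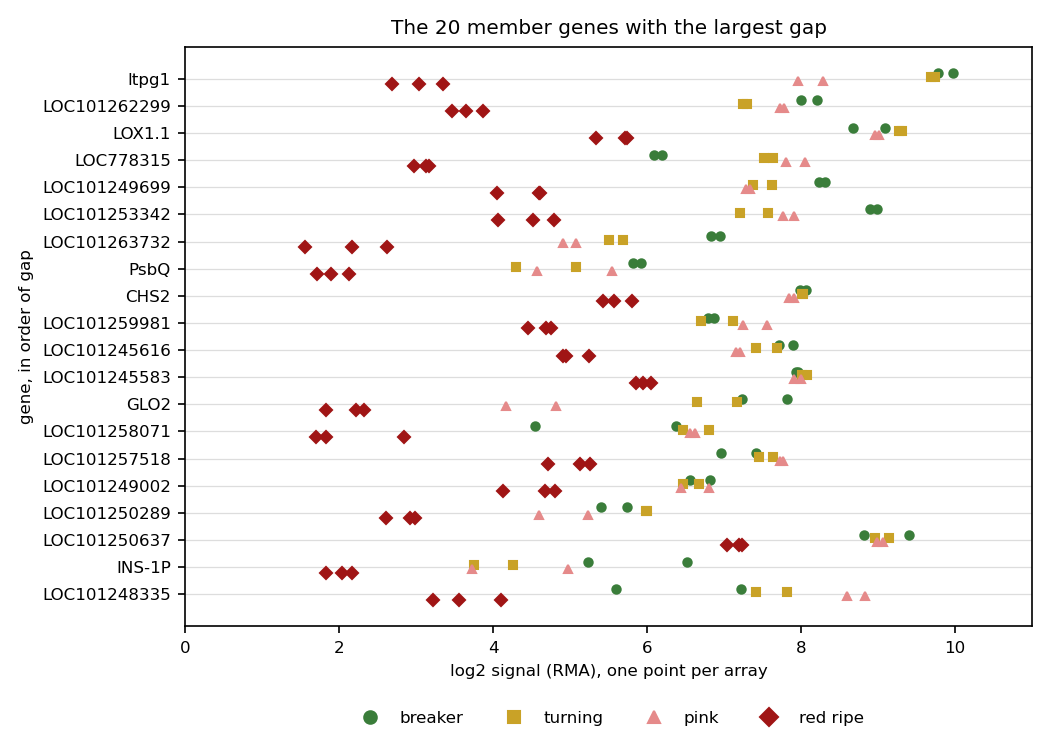
Log2 signal (x axis) on each of the 9 arrays for the 20 members with the largest gap (y axis, largest on top), with 1 point per array coloured by stage. The red ripe points lie to the left of all others in each row, as the choice requires, and the earlier stages differ in order from gene to gene.

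The gene with the largest gap was ltpg1, a non-specific lipid-transfer protein. Proteins of this family are small, secreted carriers of lipids and are known in plants for a part in building the surface layers. The signal of ltpg1 was 9.97 and 9.78 at breaker, 9.69 and 9.74 at turning, 7.96 and 8.28 at pink, and 3.35, 3.03 and 2.68 at red ripe. The first step down came at pink, where the difference from breaker was -1.76 on the log2 scale (SE 0.22, limma adjusted p = 0.00145), and the mean at breaker was 116-fold that at red ripe. At turning it did not pass the test (-0.16, SE 0.22, adjusted p = 0.686).

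In the RefSeq annotation ltpg1 lies on chromosome 10 next to LE16, a second lipid-transfer gene, with no gene between them, and LE16 was also a member (rank 23, gap 1.38). LE16 read 8.15 and 6.99 at breaker, 6.50 and 6.73 at turning, 5.95 and 6.24 at pink, and 4.57, 4.20 and 3.62 at red ripe. Its decline was spread over the stages, and at pink it was below breaker by -1.48 (SE 0.39, adjusted p = 0.0483), with the 2 breaker arrays far apart. That call held under 7 of 19 alternative settings, with differences of -2.06 to -0.90, and was lost without breaker replicate 1. The genes on either side carry lipid-transfer names too, LOC101266080 (ltp) and TSW12 (LTP 1), which makes a row of 4, and neither was a member. LOC101266080 was already at 2.90 and 2.76 at turning, from 4.75 and 4.40 at breaker, and at 1.72 and 1.62 at pink, with 1.29 to 1.48 at red ripe. Its fall passed the test at turning (-1.74, SE 0.16, adjusted p = 0.000275) and at pink (-2.90, SE 0.16, adjusted p = 3.21e-05). TSW12 stood at 3.09 on 1 breaker array and at 1.35 on the other, and between 1.07 and 1.40 on the other 7. No difference in timing between these neighbours was tested. Genes of this family resemble each other, and how far their probes read one another's transcripts was not tested.

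CD2, a homeodomain factor needed for the cutin of the tomato cuticle, was also among the members (rank 25, gap 1.37). It read 5.64 and 5.62 at breaker, 7.53 and 7.45 at turning, 5.68 on both pink arrays, and 4.25, 4.06 and 3.96 at red ripe. The rise at turning (1.86, SE 0.14, adjusted p = 0.000114) was gone at pink, where the signal was again that of breaker (0.05, SE 0.14, adjusted p = 0.883). Of the 5 genes listed for lipid transfer and the cuticle, 3 were members, against 100 of 21326 genes in all. The gene lists were chosen with earlier results of these data known, and this one holds the neighbours of ltpg1 and LE16. This count and those of the lists below are therefore a description only.

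The second group were genes of the chloroplast. Light reactions run in photosystem II, photosystem I and the ATP synthase of the photosynthetic membrane, with light-harvesting proteins as antennae. LOC101253342, annotated as the gamma chain of the chloroplast ATP synthase (rank 6, gap 2.41), read 8.89 and 8.99 at breaker, 7.20 and 7.57 at turning, 7.91 and 7.76 at pink, and 4.51, 4.79 and 4.06 at red ripe. It fell in 2 steps, a first at turning (-1.56, SE 0.24, adjusted p = 0.00317) that was kept at pink (-1.10, SE 0.24, adjusted p = 0.0197; the call held under 14 of 19 alternatives), and then the drop to red ripe, 10.4-fold below pink.

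LOC101263732, subunit V of the photosystem I reaction centre (rank 7, gap 2.28), was at 6.83 and 6.95 at breaker, 5.50 and 5.69 at turning, 4.90 and 5.07 at pink, and 1.55, 2.17 and 2.62 at red ripe. Its stage means declined in order, and the difference from breaker was -1.30 at turning (SE 0.29, adjusted p = 0.0213, a call that held under 13 of 19 alternatives) and -1.90 at pink (SE 0.29, adjusted p = 0.0039). The call at turning was lost after quantile and cyclic loess normalization, among others. The gene psaD, for the subunit of photosystem I that docks ferredoxin (rank 22, gap 1.48), read 10.12 and 10.18 at breaker, 8.75 and 9.28 at turning, 9.13 and 9.22 at pink, and 7.17, 7.05 and 7.27 at red ripe. Its fall at turning passed the test (-1.14, SE 0.19, adjusted p = 0.00469). That call was lost without turning replicate 1, after cyclic loess normalization and with only the 2 stages compared in the fit. At pink its adjusted p was 0.0117 with a difference of -0.98, just short of 2-fold. Bright genes tended to read lower at the middle stages, and the part of that in the turning falls of the ATP synthase and photosystem I genes was not tested.

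PsbQ and PSBP are extrinsic proteins of photosystem II, bound at the site where water is split. PsbQ (rank 8, gap 2.16) read 5.92 and 5.81 at breaker, 4.29 and 5.07 at turning, 4.57 and 5.54 at pink, and 1.89, 2.13 and 1.71 at red ripe. Its replicates at turning and pink were wide apart, and neither stage passed the test against breaker (adjusted p = 0.0549 and 0.204). PSBP, the last member, lay between 6.53 and 6.94 on the 6 earlier arrays and between 5.70 and 5.95 at red ripe, about 2-fold lower, with no call at turning or pink (adjusted p = 0.254 and 0.991). PSBO, the partner of both at the same site, was no member: it read 4.95 and 4.90 at breaker, 3.81 to 4.66 at turning and pink and 4.38 to 4.44 at red ripe.

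LOC101267774, whose synonyms CAB3A, CAB3B and LHCP name a light-harvesting chlorophyll a/b protein (rank 97, gap 0.62), behaved differently from the other photosystem genes. It was at 2.89 and 2.41 at breaker, rose to 5.82 and 5.75 at turning and 5.36 and 5.91 at pink, and was at 1.78, 1.56 and 1.79 at red ripe. The rise was the largest of the members at turning (3.14, SE 0.22, adjusted p = 7.89e-05) and was kept at pink (2.98, SE 0.22, adjusted p = 0.000113). A second probe set of the same gene read 1.23 and 1.26 at breaker, 2.05 and 1.9 at turning and 1.06 to 1.44 on the other 5 arrays, too near the lower end of the scale to show a step or its absence. The course thus rests on 1 probe set of a family of similar genes. CAB4, another light-harvesting gene and no member, went the other way: it was at 4.86 and 3.96 at breaker and at 1.97 to 2.21 at turning and pink, already at its red ripe level of 1.83 to 2.06.

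Of 40 plastid-encoded genes listed, 1 was a member. The gene psbM, a small subunit of photosystem II (rank 68, gap 0.83), read 11.36 and 11.45 at breaker, 11.66 and 11.63 at turning, 11.53 and 11.47 at pink, and 10.45, 10.49 and 10.53 at red ripe. The earlier arrays spanned 0.30, and the mean at red ripe was 2.01-fold below pink. Its 3 other probe sets each had all red ripe arrays below the earlier ones as well, with gaps of 0.59, 0.54 and 0.67, on the same RNA. Of the 40 plastid genes 14 had a gap over 0. Read by the probe set of highest mean signal of each gene, none was lower at red ripe than at turning or pink and 1 was lower than at breaker (psbJ, -1.07, SE 0.16, adjusted p = 0.0063). A second member, rps14, for a ribosomal protein (rank 85, gap 0.70), is outside that list because its symbol matches both a plastid gene and a mitochondrial pseudogene. It read 8.59 and 8.56 at breaker, 9.33 and 8.93 at turning, 9.52 and 9.78 at pink, and 7.86, 7.70 and 7.79 at red ripe, with a rise at pink against breaker (1.08, SE 0.17, adjusted p = 0.0049). Of 8 nuclear photosystem and light-harvesting genes listed, 4 were members, which again describes the chosen list only.

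**Figure D3:**
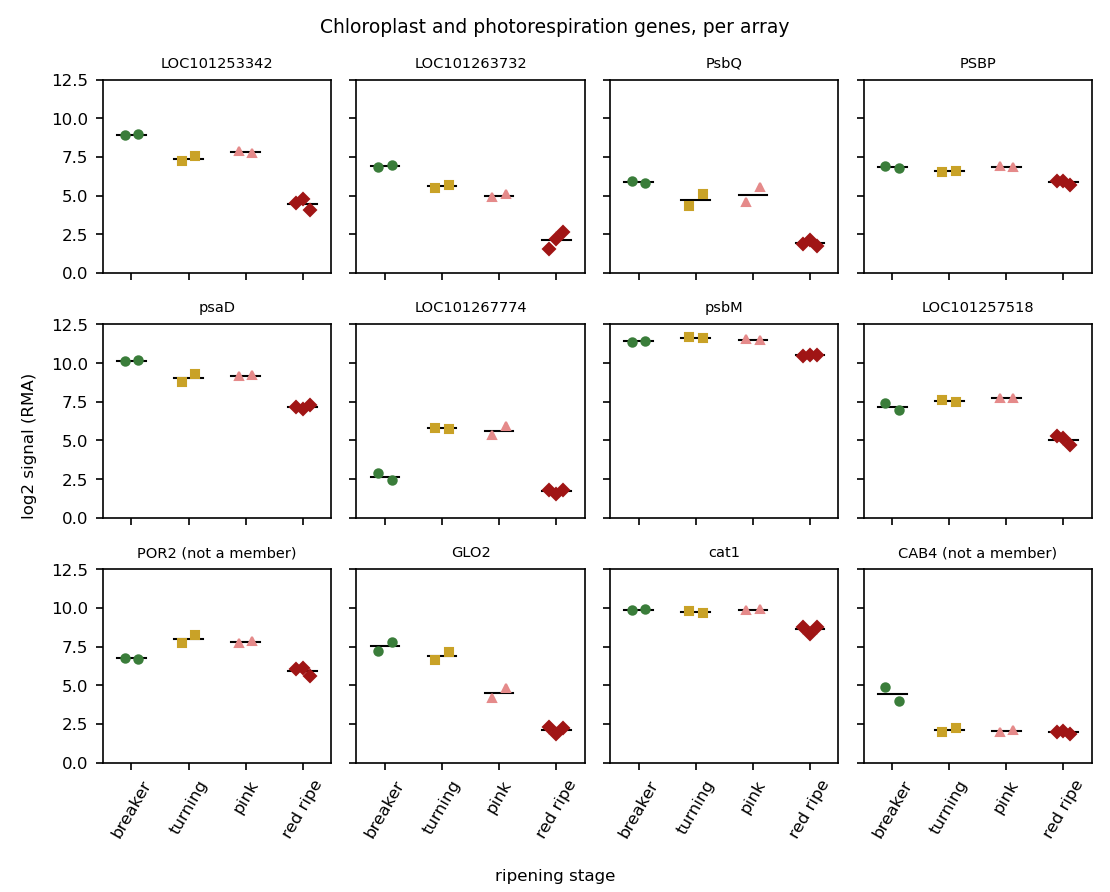
Log2 signal (y axis) by stage (x axis) of 12 chloroplast and photorespiration genes, with 1 point per array and a bar at the stage mean. LOC101253342, LOC101263732 and psaD had lower means at turning than at breaker and their lowest at red ripe. LOC101267774 rose from breaker to turning, cat1 and psbM stayed level until pink, and CAB4, no member, was at its low level from turning on.

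Genes next to the light reactions behaved in the same mixed way. LOC101257518 has the synonym at103 and corresponds by that name to the enzyme that, in Arabidopsis, closes the fifth ring of chlorophyll (rank 15, gap 1.70). It read 7.41 and 6.96 at breaker, 7.63 and 7.45 at turning, 7.72 and 7.77 at pink, and 5.26, 5.13 and 4.71 at red ripe, and passed the test at neither middle stage (adjusted p = 0.342 and 0.173). POR2, the protochlorophyllide reductase that acts later in the same pathway, missed the list on a tie. It rose at turning, from 6.76 and 6.72 to 7.76 and 8.22 (1.25, SE 0.22, adjusted p = 0.00703, held under 18 of 19 alternatives). At red ripe it was at 6.07, 6.14 and 5.58. Both chlorophyll synthesis genes listed therefore had their lowest values at red ripe, after middle stages whose means lay above breaker. Other genes of that pathway were not listed.

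GLO2, the glycolate oxidase of photorespiration (rank 13, gap 1.84), had its first called fall at pink, and at turning it did not pass the test (-0.61, SE 0.30, limma adjusted p = 0.238). It was at 7.23 and 7.81 at breaker, 6.65 and 7.17 at turning, 4.16 and 4.82 at pink, and 2.32, 1.83 and 2.21 at red ripe. The fall at pink passed the test against breaker (-3.03, SE 0.30, adjusted p = 0.00044). The fall from turning to pink also passed (-2.42, SE 0.30, adjusted p = 0.00669, held under 17 of 19 alternatives). Its partner in the peroxisome, the catalase cat1 (rank 54, gap 0.93), which removes the hydrogen peroxide that glycolate oxidase makes, did not follow that course: the 6 earlier arrays lay between 9.70 and 9.95 and the red ripe arrays at 8.76, 8.28 and 8.77. CAT2, a second catalase and no member, was at 4.81 to 5.57 before red ripe and at 5.82 to 6.18 in red fruit. No carbon fixation gene of 3 listed was a member. RBCS-1 and RBCS-2A, for the small subunit of rubisco, read at most 2.51 on any array, and SBPase read 4.42 to 5.56 earlier and 5.08 to 5.40 at red ripe.

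Flavonoids are made from phenylpropanoid precursors by chalcone synthase, and flavanone 3-hydroxylase acts downstream. Of 4 listed genes 3 were members, a count that describes this chosen list only. CHS2, a chalcone synthase (rank 9, gap 2.04), was level up to pink: it read 8.06 and 7.99 at breaker, 8.01 and 8.02 at turning, 7.84 and 7.91 at pink, and 5.80, 5.57 and 5.43 at red ripe. The 6 earlier arrays spanned 0.22 and the mean at red ripe was 4.84-fold below pink. CHS1, the other chalcone synthase and no member, had fallen by turning (5.71 and 6.29 to 1.86 and 2.87; -3.64, SE 0.34, adjusted p = 0.000263), regained part of its signal at pink (3.96 and 4.20; 1.72 above turning, SE 0.34, adjusted p = 0.039, a call that held under 8 of 19 alternatives), and was at 2.24, 1.88 and 1.72 at red ripe. The 2 chalcone synthases differed at turning, where 1 kept its breaker signal and the other had lost it, though the difference between them was not tested.

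F3H, the flavanone 3-hydroxylase (rank 52, gap 0.94), also had its dip at turning. It was at 8.66 and 8.64 at breaker, 6.69 and 6.07 at turning, 7.30 and 7.38 at pink, and 5.13, 4.72 and 4.85 at red ripe, with -2.27 at turning (SE 0.22, adjusted p = 0.000321) and -1.31 at pink (SE 0.22, adjusted p = 0.00594). The call at pink held under 18 of 19 alternatives. From turning to pink the difference of 0.96 did not pass the test (SE 0.22, adjusted p = 0.0677). MYB12, the factor that switches on flavonoid genes in tomato peel (rank 37, gap 1.1), also dipped at turning. It read 5.0 and 4.70 at breaker, 3.51 and 3.40 at turning, 5.01 and 5.25 at pink, and 2.06, 1.51 and 2.30 at red ripe. The fall at turning (-1.40, SE 0.25, adjusted p = 0.00708) and the rise from turning to pink (1.68, SE 0.25, adjusted p = 0.0138) both passed the test, and each call held under 16 of 19 alternatives. After quantile normalization the fall at turning was -0.78, under 2-fold, and without pink replicate 2 the rise was not called. At pink the difference from breaker was 0.28 (SE 0.25, adjusted p = 0.572). The 90th percentile of the turning arrays was 4.17 and 4.51, below the 5.09 and 5.15 of the breaker arrays, and the part of that in these dips was not tested.

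**Figure D4:**
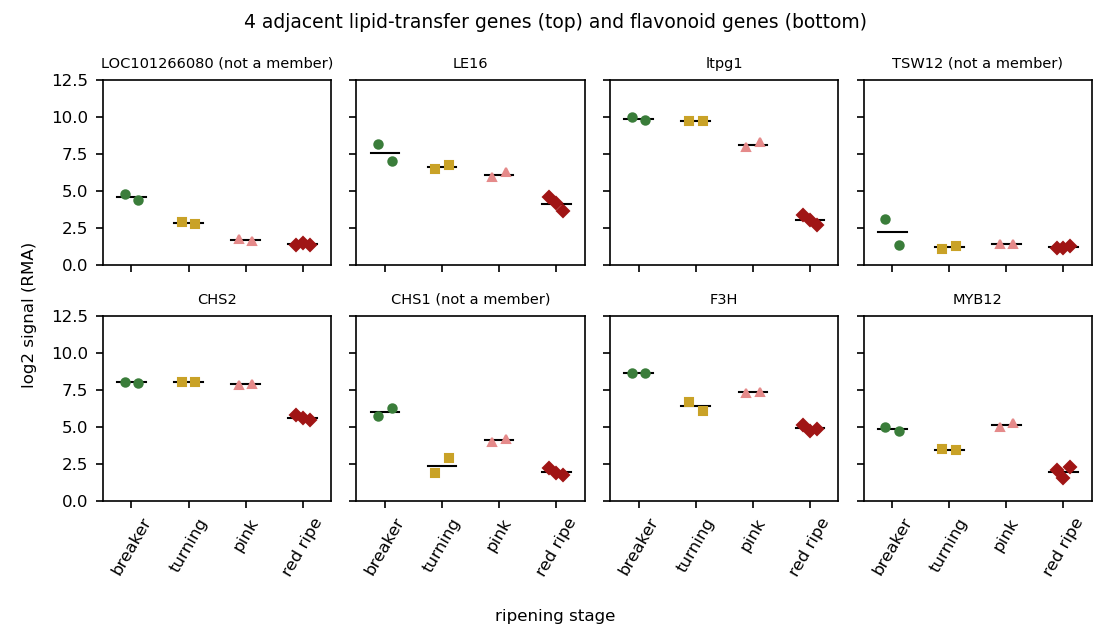
Log2 signal (y axis) by stage (x axis), 1 point per array with a bar at the stage mean, for 4 lipid-transfer genes in their order on chromosome 10 (top) and 4 flavonoid genes (bottom). ltpg1 fell most at red ripe, LOC101266080 had fallen by turning, CHS2 was level to pink, and CHS1, F3H and MYB12 were lower at turning than at breaker.

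LOX1.1 is the gene known as TomloxA, a lipoxygenase, an enzyme that adds oxygen to polyunsaturated fatty acids (rank 3, gap 2.94). Its signal was 8.68 and 9.09 at breaker, 9.31 and 9.27 at turning, 9.01 and 8.96 at pink, and 5.71, 5.33 and 5.74 at red ripe. The gene kept its level through pink and was 10.5-fold lower in red fruit. It was the only member of 5 lipoxygenases listed. LOXB stayed between 10.62 and 10.96 on all 9 arrays, loxC rose from turning to pink (1.03, SE 0.16, adjusted p = 0.0143, held under 13 of 19 alternatives) and was at 8.16 to 8.45 at red ripe, and loxD was higher at red ripe than at breaker (1.63, SE 0.34, adjusted p = 0.0334).

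LOC544313, with the synonyms GAD and LeGAD1, is a glutamate decarboxylase, the enzyme that makes the amino acid GABA stored in green tomato fruit (rank 43, gap 1.03). It had the tightest earlier values of all members: 9.85 and 9.82 at breaker, 9.69 and 9.77 at turning, 9.79 and 9.81 at pink, a span of 0.16, and then 8.66, 8.51 and 8.58 at red ripe. None of the 7 other GABA genes listed was a member. GABA-TP1, a transaminase that uses GABA, fell at turning (-2.19, SE 0.17, adjusted p = 0.000102) and at red ripe was at 7.77 to 7.86, above its turning values of 6.41 and 6.28.

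PME2.1, a pectin methylesterase of the cell wall (rank 39, gap 1.1), read 8.07 and 8.55 at breaker, 8.76 and 8.85 at turning, 8.15 and 8.54 at pink, and 6.97, 6.89 and 6.62 at red ripe. PME1.9 had the same order at a smaller gap (0.41), and PMEU1 had already fallen at turning (-1.84, SE 0.26, adjusted p = 0.00226). E8-6, which RefSeq gives as a synonym of the ethylene-responsive ripening gene E8 (rank 81, gap 0.71), was between 4.98 and 5.96 on the earlier arrays and at 4.0, 4.15 and 4.27 at red ripe. The gene lap2, a leucine aminopeptidase (rank 79, gap 0.72), was between 3.26 and 4.37 and then at 1.66, 1.47 and 2.54.

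Most members carry only a numbered symbol: 78 of the 100 begin with LOC, RefSeq lists 98 as protein-coding and 1, LOC101260738, as a long non-coding RNA. The numbered genes below are given by their values alone. LOC101262299 (rank 2, gap 3.37) was at 8.20 and 8.0 at breaker, 7.24 and 7.30 at turning, 7.78 and 7.72 at pink, and 3.87, 3.65 and 3.46 at red ripe. LOC778315 (rank 4, gap 2.92) climbed before it dropped: it read 6.19 and 6.09 at breaker, 7.64 and 7.52 at turning, 7.80 and 8.05 at pink, and 2.97, 3.17 and 3.13 at red ripe, with rises of 1.44 at turning (SE 0.15, adjusted p = 0.000488) and 1.78 at pink (SE 0.15, adjusted p = 0.000202). LOC101249699 (rank 5, gap 2.67) drifted down from 8.31 and 8.23 at breaker to 7.34 and 7.28 at pink and was at 4.59, 4.61 and 4.05 at red ripe. Before red ripe only the second of these 3 genes had a difference from breaker of more than 2-fold.

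LOC101245583 (rank 12, gap 1.86) was as flat as LOC544313, with 7.91 to 8.08 on the 6 earlier arrays and 6.05, 5.94 and 5.85 at red ripe, 4.02-fold below pink. LOC101249002 (rank 16) lay between 6.44 and 6.81 and then at 4.67, 4.80 and 4.12, and LOC101250637 (rank 18) between 8.82 and 9.40 and then at 7.19, 7.23 and 7.04. LOC101259981 (rank 10) was at 6.70 to 7.55 and 4.45 to 4.75, and LOC101245616 (rank 11) at 7.16 to 7.89 and 4.90 to 5.24. None of these 5 was called at turning or pink. LOC101258071 (rank 14) and LOC101248335 (rank 20) had breaker replicates far apart, 4.54 and 6.38 for the first and 5.60 and 7.22 for the second, and red ripe values of 1.70 to 2.84 and 3.22 to 4.10. LOC101250289 (rank 17) was at 4.60 to 6.0 and 2.60 to 2.98, and INS-1P (rank 19) at 3.72 to 6.52 and 1.82 to 2.16, with a fall at turning (-1.88, SE 0.47, adjusted p = 0.0328) that held under 9 of 19 alternatives and was lost without breaker replicate 2. The 80 members after rank 20 had gaps of 0.58 to 1.49.

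How the members moved before red ripe was limited by the choice, since a gene that fell close to its red ripe level by turning or pink could not have a wide gap. Against breaker, 11 members were higher at turning (1.46% of all probe sets) and 22 lower (6.8%), and at pink 12 were higher (1.25%) and 15 lower (5.53%). After quantile normalization, which removes the difference in spread between arrays, the counts were 23 higher and 14 lower at turning. At pink they were 23 higher and 12 lower. No share over all probe sets is given after that normalization, so this shift is not read as a trait of the members. From turning to pink 8 rose (1.12%) and 7 fell (0.532%), and without pink replicate 2 the first count was 2. Among the 12935 probe sets with 1 gene symbol and a breaker mean of at least 2.27, the lowest breaker mean of any member, 2.1% were higher and 29.5% lower at turning, with a median difference of -0.62, where the median of the members was 0.00. At pink the same probe sets had 2.48% higher and 24.2% lower. Rises are the side that the choice of the members favours, and the difference of these shares was not tested.

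Against breaker, 58 members were called at neither turning nor pink, 26 were called lower at 1 of them at least, and 15 higher. The remaining 1 was lower at turning and higher at pink. No share over all probe sets is given for these classes or for the counts after them. With 2 arrays at each of these stages, a missing call does not show a level signal. PsbQ, for one, differed from breaker by -1.18 at turning without a call (limma adjusted p = 0.0549). The description "lost only at red ripe" fits a part of the members by the calls. Of the 100, 52 were called in no comparison among the 3 earlier stages, and 45 of these were called lower at red ripe in all 3 comparisons. The 6 earlier arrays spanned at most 0.50 for 10 members, at most 1 for 37 and at most 2 for 74, with a median of 1.33. The highest stage mean was at breaker for 37 members, at turning for 30 and at pink for 33. The means fell at each successive stage for 12 members, ltpg1, LE16, GLO2 and LOC101263732 among them, and rose from breaker over turning to pink for 20. Rises are the side that the choice favours, and no share over all genes is given for these orders.

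Several members had lost much of their signal before red ripe. The largest fall from breaker, at turning and at pink alike, was in LOC101260057, annotated as a beta-D-glucosidase (rank 92, gap 0.63). It was at 7.06 and 6.80 at breaker, 3.09 and 3.41 at turning, 3.82 and 2.92 at pink, and 2.29, 1.95 and 2.18 at red ripe. It fell at turning (-3.68, SE 0.28, adjusted p = 0.000107). LOC101266652 (rank 65) held 6.21 and 6.15 at turning and was at 3.18 and 2.83 at pink (-2.66 against breaker, SE 0.16, adjusted p = 4.3e-05) and at 1.89 to 1.99 at red ripe. In both genes the red ripe values lay near the lower end of the scale, where the size of the last step is not read.

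At turning the largest rises over breaker were in LOC101267774, LOC101250725 and LOC101251845. LOC101250725 (rank 56) went from 3.54 and 3.43 at breaker to 6.47 and 6.41 at turning and 5.67 and 5.99 at pink, and was at 2.31, 2.04 and 2.54 at red ripe (turning against breaker 2.96, SE 0.19, adjusted p = 5.3e-05). LOC101251845 (rank 95) went from 3.13 and 3.12 to 5.69 and 6.38, was at 5.10 and 5.88 at pink, and ended at 2.1, 2.1 and 2.50 (2.91, SE 0.30, adjusted p = 0.000445). In these genes the signal came and went within the 4 stages. The red ripe values lay near the lower end of the scale, so no fold below breaker is given. Of these genes only LOC101250725 was called lower at red ripe than at breaker.

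A few members moved up and down between neighbouring stages, and 1 of them had the largest rise over breaker at pink. LOC101268445 (rank 88, gap 0.66) had the widest span of all, 5.70: it read 5.45 and 3.66 at breaker, 2.16 and 2.29 at turning, 7.55 and 7.86 at pink, and 1.50, 1.44 and 1.46 at red ripe. At pink it was 3.15 above breaker (SE 0.46, adjusted p = 0.0028). The rise from turning to pink was 5.48 (SE 0.46, adjusted p = 0.000869), a call that held under 18 of 19 alternatives. The 2 breaker arrays were far apart. The red ripe values lie under the array medians, so no fold against them is given. LOC101245466 (rank 60, gap 0.86) had the same dip at 6.56 and 6.62, from 10.37 and 8.49 at breaker, and was at 9.86 and 9.38 at pink and at 4.96, 4.64 and 5.70 at red ripe. Its rise from turning to pink (3.03, SE 0.55, adjusted p = 0.0289) held under 12 of 19 alternatives. TFHS1 (rank 73, gap 0.77) peaked at turning like CD2. It read 8.12 and 7.96, then 9.27 and 9.44, 6.88 and 7.31, and finally 6.11, 6.10 and 5.81. Its fall from turning to pink passed the test (-2.26, SE 0.19, adjusted p = 0.000923) and held under 18 of 19 alternatives.

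**Figure D5:**
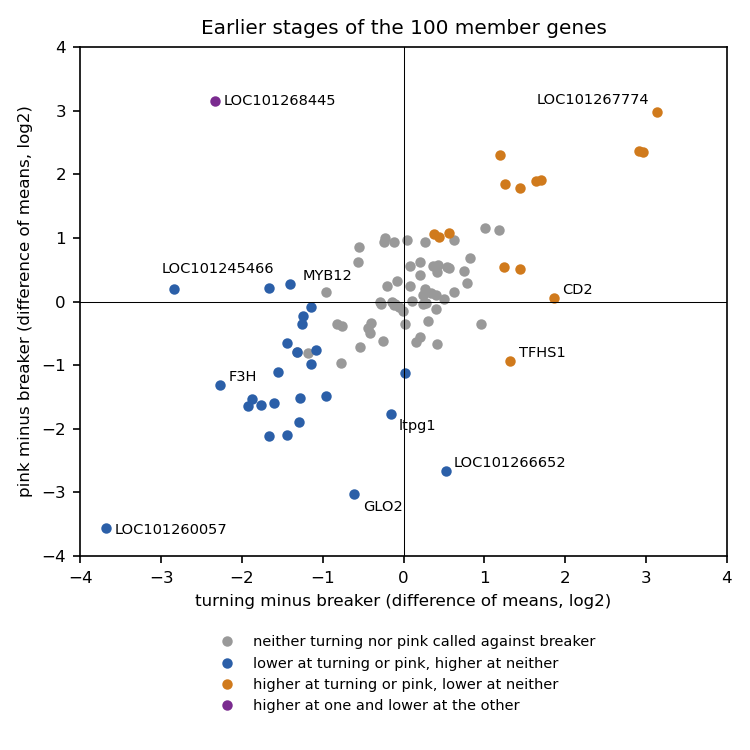
Difference of stage means in log2 units at turning (x axis) and pink (y axis) against breaker for the 100 members, 1 point per gene, coloured by the calls at the 2 stages. The 58 grey genes were called at neither, 26 blue genes lie mostly in the lower left, 15 orange genes to the right or above, and LOC101268445 stands alone at the upper left.

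Besides the lipid-transfer pair, 3 other pairs of members lay within 10 genes of each other in the annotation. LOC101267774 and LOC101245729 (rank 35, gap 1.13) are adjacent on chromosome 3. LOC101245729 was at 3.32 to 5.34 on the earlier arrays and at 2.19, 1.94 and 1.76 at red ripe, with its lowest earlier values, 4.20 and 3.32, at breaker, and it was called at neither turning nor pink. The genes beside this pair did not have the gap: LOC101266097, for one, was at 6.90 and 6.84 at breaker and at 6.42 to 6.99 at red ripe. LOC101263369 and LOC101262166 on chromosome 2 have 5 genes between them, and LOC101259198 and LOC101259981 on chromosome 1 have 7.

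Another probe set was available for 5 members, 7 probe sets in all. The 3 of psbM are given above. LOC101263952 (rank 31, gap 1.21) fell on the probe set that made it a member, from 8.18 to 8.96 down to 6.84 to 6.97, whereas its other probe set was at 6.30 to 7.88 on the earlier arrays and at 7.84 to 7.89 at red ripe, in the opposite direction. The other probe sets of LOC101245729, LOC101244316 and LOC101267774 were at or below 2.41 on all arrays and carried little signal. Only psbM among the members had a second probe set with a gap over 0.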

How the data were processed

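The authors deposited log2 signals per probe set, which Affymetrix Expression Console had computed by RMA (background correction, normalization across arrays, summary per probe set). The spread of the deposited signals still differed between stages, as given above, and how the arrays were grouped for that normalization was not tested. Transcriptome Analysis Console 2.0 is a further tool in the submitters' processing notes. All 9 arrays and all 67795 probe sets were used as deposited; 23194 carry 1 gene symbol, 170 several and 44431 none. No detection calls were used, so the lowest signals cannot be separated from background, and the number of arrays limits the precision.

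The members and gene lists were chosen with earlier results of these data known. The gap took the probe set with the largest gap of a gene, with ties broken by probe set number, and the gene lists took the probe set of highest mean signal. A mean per stage was fitted in limma 3.58.1 (R 4.3.3) by lmFit and eBayes, with 5 residual and 3.65 prior degrees of freedom and Benjamini-Hochberg adjustment over all probe sets. The fit was tested on simulated data with independent noise on each array. These lacked the difference in spread between stages, so the simulation cannot show how that difference affects the calls. No source says which plants the arrays come from, and the p-values therefore reflect only how far these samples spread, which may be technical variation.

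Genes were matched to RefSeq (assembly SLM_r2.1) by symbol (95 members) or synonym (5 members), and the annotation served for names and neighbours only. The symbol rps14 had several matches. No probe set matched the seed genes listed as a tissue check. Named are the 20 members with the largest gap, up to 4 members per gene list, the 3 members at either extreme for turning and for pink, ranks 98 to 103, members of shared families, and members with a second probe set that lacks the gap. List genes outside the 100, neighbours of members, TFHS1, lap2, rps14 and LOC101260738 were named after their values were seen. Promoter and protein sequences were not used here. The alternatives were other scalings, filters, weights, thresholds and moderation, a replicate block, and each array left out in turn.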

Additional observations from a re-analysis of the deposited data

How the results depend on the processing

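All 100 members kept every red ripe array below every earlier array after cyclic loess or quantile normalization and after median centring, checks chosen after seeing the data. Of the 100 members, 63 were found again by the difference of stage means instead of the gap, 72 after quantile normalization, 78 after cyclic loess, 94 after median centring, 99 with the probe set of the highest mean signal, and 88 to 97 with 1 array left out. The counts before red ripe moved more. Turning against breaker, 11 higher and 22 lower, became 23 and 14 after quantile normalization and 21 and 10 after cyclic loess. No share over all probe sets is given under these settings, so the turn toward higher is not read as a trait of the members. The lower count at turning was 13 with array weights and 14 with only the 2 stages compared in the fit. Pink against breaker, 12 higher, became 23 after quantile normalization, 19 after cyclic loess and 19 with no fold threshold. Pink against turning, 8 higher and 7 lower, became 5 higher after quantile normalization, 0 higher and 3 lower with array weights, 2 higher and 1 lower with only the 2 stages compared, and 13 higher at the thresholds of the study. The cause was not tested, except that a fit of 2 stages rests on fewer arrays. The array weights were 0.40 on the turning arrays, 0.57 on the pink arrays, 2.21 on the breaker arrays and 0.90 to 2.11 at red ripe. The main fit gave all arrays the same weight, and the part of this in the lost calls was not tested. With 1 array left out, the higher count of pink against turning ranged from 2 to 9, with 2 without pink replicate 2 and 5 without red ripe replicate 1 or 2. The other ranges were 9 to 14 higher and 15 to 23 lower at turning, 9 to 13 higher and 12 to 18 lower at pink, 6 to 8 lower from turning to pink, and 70 to 88, 88 to 94 and 90 to 96 lower at red ripe against breaker, turning and pink. With the replicate number as a block the counts were 11 higher and 19 lower at turning, 11 and 14 at pink, 6 and 7 from turning to pink, and 81, 91 and 93 lower at red ripe. Deviations of arrays with the same number correlated at -0.008 to 0.09, so the numbers were not taken as pairs. Of 52 calls of named genes before red ripe, 27 were kept under all 19 alternatives and none changed sign. The motif alternative was not run. The 2 or 3 arrays per stage limit each comparison, and the order of values under about 2 is not read.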
